A study of Mus musculus with 59 samples.

Results

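The genes described here were 10 components of the myostatin and activin pathway, taken by gene symbol from a table of 47643 symbols. They were the ligand genes Mstn, Gdf11, Inhba and Inhbb, the antagonist genes Fst and Fstl3, the receptor genes Acvr2a and Acvr2b, and the Smad genes Smad3 and Smad7. All 10 symbols were present, each with 1 row, and each gene had a value above 0 in all 59 libraries.

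Myostatin and the activins are secreted ligands of the TGF-beta family. They bind the type II receptors encoded by Acvr2a and Acvr2b, which recruit and activate a type I receptor, and the type I receptor phosphorylates Smad2 and Smad3, which enter the nucleus with Smad4 and change transcription. Myostatin is made mostly by skeletal muscle fibres and restrains muscle mass, and raised activin signalling is known to cause muscle wasting. Follistatin (Fst) and follistatin-like 3 (Fstl3) bind these ligands outside the cell and block them, and Smad7 is an inhibitory Smad that targets the receptors.

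The libraries were bulk RNA-seq of 3 muscles of female NCI Ath/nude mice, an athymic nude strain, aged 4 months. All mice carried a patient-derived melanoma xenograft in the flank, either one that causes wasting (cachectic) or one that does not (non-cachectic). For the diaphragm, the main breathing muscle, both tumour groups were given rFibcd1, recombinant secreted Fibcd1, or a mock injection of albumin into the abdomen. Diaphragm libraries numbered 9 in the non-cachectic mock group and 10 in each of the cachectic mock, non-cachectic rFibcd1 and cachectic rFibcd1 groups. Tibialis anterior (TA) and soleus (SOL), 2 hind limb muscles, each had 5 cachectic and 5 non-cachectic libraries, and the labels of these give no injection. Each condition rested on 1 xenograft, so cachexia and any other difference between the tumours cannot be told apart, and no mice without a tumour were included. Libraries are named below by group and by the number in their column name. Nothing in the labels says that the libraries of a group came from separate mice, so p-values measure the spread between these libraries.

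Values were TPM, shares of transcripts that are corrected for transcript length and can be compared between genes. Every library summed to the same total of 1000000, so the sequencing depth is unknown, and between 16436 and 19456 genes per library were above 0. The myosin heavy chains fitted the labelled muscles with 1 exception. Myh4, of the fastest fibres, was at 7593 to 14537 TPM in TA and at 7.34 to 69.8 TPM in 9 of the 10 soleus libraries, but at 4989 TPM in cachectic soleus library 7. Myh7, of slow fibres, was between 4288 and 7886 TPM in the soleus libraries and no higher than 4.83 TPM in TA. Results that rest on cachectic soleus library 7 are therefore given with and without it.

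Libraries also stood apart in ways that moved with the groups. Mitochondrially encoded transcripts took a median of 47.3% of the TPM in the non-cachectic mock diaphragm and 38.7% in the cachectic mock diaphragm, 47.7% and 40.6% in TA, and 41.0% and 30.6% in soleus. Since TPM adds up to a fixed total, the other genes shared more of it in the cachectic libraries. Libraries also differed in Pcna-ps2, a pseudogene transcript above 1 TPM in some libraries and at or below it in the others. It was above 1 TPM in 3 of 9 non-cachectic mock, 9 of 10 cachectic mock, 6 of 10 non-cachectic rFibcd1 and 8 of 10 cachectic rFibcd1 diaphragms, and in all 5 cachectic but none of the 5 non-cachectic libraries of each limb muscle. This split moved with the mitochondrial share in non-cachectic diaphragms, which was 39.3 to 43.8% above 1 TPM of Pcna-ps2 and 44.95 to 49.0% in the other libraries with rFibcd1, and 41.9 to 46.8% and 46.7 to 51.9% with mock. It did not do so in the cachectic rFibcd1 diaphragms. There the lowest share, 29.8%, was in library 11, below 1 TPM of Pcna-ps2, and the highest, 46.4%, in library 2, above it. In the diaphragm this split entered as a term was past an adjusted p of 0.05 for 61.0% of all genes tested. In TA and soleus it coincided with the tumour groups, and the split and the tumour cannot be told apart there. In bulk libraries, fewer cells of a type and less RNA per cell cannot be told apart either.

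The promoters of Mstn, which separated soleus from the other muscles, and of Fstl3, the antagonist gene that was higher in cachectic soleus, are shown first. Mstn lies on chromosome 1 (GRCm38, 53061640 to 53068079, plus strand) and Fstl3 on chromosome 10 (79777272 to 79782630, plus strand). The sequences are the 250 bases before each RefSeq start site (GRCm38.p6, 5′ to 3′, plus strand), with E-boxes (CANNTG, the same on both strands) in capitals for Mstn and Smad boxes (CAGAC on either strand, read as GTCTG where it lies on the other strand) in capitals for Fstl3.
Mstn, chr1:53061390-53061639: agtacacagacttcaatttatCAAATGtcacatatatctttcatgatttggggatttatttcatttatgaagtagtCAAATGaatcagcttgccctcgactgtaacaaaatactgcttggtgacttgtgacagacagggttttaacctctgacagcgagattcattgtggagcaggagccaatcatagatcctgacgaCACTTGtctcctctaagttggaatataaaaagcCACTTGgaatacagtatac
Fstl3, chr10:79777024-79777273: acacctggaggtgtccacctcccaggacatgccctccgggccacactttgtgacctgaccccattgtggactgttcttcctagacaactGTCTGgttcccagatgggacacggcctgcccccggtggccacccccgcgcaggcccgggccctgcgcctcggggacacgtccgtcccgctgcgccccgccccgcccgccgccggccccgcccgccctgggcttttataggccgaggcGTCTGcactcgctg
E-boxes are bound by muscle bHLH factors and the Smad box by Smad3. The Mstn window held 4 E-box matches, which began at -229, -174, -52 and -19 from the start site, and 2 Smad box matches, at -244 and -120. The Fstl3 window held 2 Smad box matches, at -161 and -14, the first of which shared its first base with an E-box that began at -166. Both motifs are common, since 66.2% of 32851 promoter windows of the same length held an E-box and 42.2% a Smad box. Windows of 8 of the 10 genes were in the table, and 3 of these 8 held an E-box and 4 a Smad box. The FoxO motif GTAAACA was in 3.17% of all windows and in none of these 8. Exons of Fst, Fstl3 and Acvr2a overlap exons of Gm47040, Prss57 and Orc4 on the opposite strand by 115, 1157 and 446 bases (GENCODE M21), and whether the counting used strand is not stated in the sources used here, so reads from such bases may not be told apart.

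The first comparison set the muscles beside each other in mice with the non-cachectic tumour, for the diaphragm without rFibcd1. Mstn separated soleus from the other muscles. TA and diaphragm overlapped in it and soleus almost lacked it, whereas Fst was lowest in TA. Of the 9 genes tested (Inhba was too low), 5 differed between diaphragm and TA, where 72.5% of all genes did, 4 between diaphragm and soleus (38.8% of all genes) and 5 between TA and soleus (69.5% of all genes). These shares of the members lie near those over all genes. In the non-cachectic libraries Mstn was below 1 TPM throughout soleus, and Fstl3 and Inhbb throughout TA. These genes passed the filter through the libraries where they were higher. Their p-values against that muscle, and their calls in these counts, thus add no support to the levels given below.

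Mstn stood at 15.7, 16.9, 26.7, 19.0 and 20.7 TPM in the 5 non-cachectic TA libraries (mean 19.8 ± 4.32 SD). In the non-cachectic mock diaphragm it ran from 8.57 over a median of 15.1 to 19.7 TPM (mean 15.2 ± 3.25 SD, n = 9). The non-cachectic soleus libraries held 0.873, 0.304, 0.330, 0.481 and 0.187 TPM (mean 0.435 ± 0.266 SD). No soleus library of this group reached the lowest TA or diaphragm library, and TA and diaphragm overlapped. On the log2(TPM + 1) scale, Mstn was higher in TA than in soleus by 3.85 ± 0.44 (SE, adjusted p = 3.3e-09) and higher in diaphragm than in soleus by 3.48 ± 0.39 (adjusted p = 5.2e-09). The difference of -0.37 between diaphragm and TA did not pass the test.

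The other ligand genes were low everywhere. Gdf11, the closest relative of Mstn, was at 2.60, 2.30, 2.21, 2.53 and 2.53 TPM in TA, at 1.66, 1.73, 1.87, 1.96 and 1.98 TPM in soleus and between 0.973 and 1.64 TPM in the mock diaphragm. These 3 ranges did not overlap, and the difference between diaphragm and TA passed the test (-0.56 ± 0.13, adjusted p = 0.00024). Inhbb, which encodes the activin B subunit, stood at 0.124, 0.249, 0.134, 0.194 and 0.160 TPM in TA and was higher in every diaphragm library (0.382 to 1.66 TPM; 0.72 ± 0.23, adjusted p = 0.0057) and in every soleus library (1.16, 0.824, 1.42, 0.558 and 1.43 TPM; TA minus soleus -0.81 ± 0.26, adjusted p = 0.0065). Inhba, the activin A subunit, did not exceed 1.48 TPM in any of the 59 libraries and passed 1 TPM in 4 of them, so it entered no test.

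The antagonist genes were lowest in TA. Fst was at 1.36, 1.67, 1.22, 1.37 and 1.33 TPM in TA, between 5.18 and 9.10 TPM in the mock diaphragm (median 6.87) and at 10.6, 8.56, 8.03, 8.78 and 17.5 TPM in soleus. Every TA library lay below every library of the other muscles, by -2.24 ± 0.20 against soleus (adjusted p = 1.4e-11), and the diaphragm exceeded TA by 1.73 ± 0.18 (adjusted p = 2.2e-10). Diaphragm and soleus overlapped, and their difference of -0.51 ± 0.18 (adjusted p = 0.021) fell to -0.33 (adjusted p = 0.15) without non-cachectic soleus library 65, the highest. Fstl3 had the same order of TA below the other muscles, at 0.532, 0.513, 0.418, 0.317 and 0.497 TPM in TA, 1.62, 1.28, 1.90, 1.32 and 1.70 TPM in soleus and 1.22 to 2.08 TPM in the mock diaphragm. It was higher in diaphragm than in TA by 0.89 ± 0.16 (adjusted p = 5.0e-06) and lower in TA than in soleus (-0.81 ± 0.18, adjusted p = 0.00014), while diaphragm and soleus overlapped. The ratio of Fst to Mstn in a library, both in TPM, had a median of 0.0719 in non-cachectic TA (0.0455 to 0.0989), 0.469 in the mock diaphragm (0.349 to 0.607) and 24.3 in soleus (12.2 to 93.4). These ratios are given as a description of the muscles. Several lists of markers of other cell types were low in TA as well. Fibroblast markers summed to 75.3 to 123 TPM in TA, 331 to 541 TPM in the mock diaphragm and 251 to 397 TPM in soleus (6 of 6 lower in TA than in either), and macrophage markers to 9.19 to 21.2, 70.1 to 164 and 40.5 to 53.0 TPM (5 of 5 lower). All 4 endothelial and all 4 smooth muscle and pericyte markers were lower in TA than in either muscle, and adipocyte markers were lower for 3 of 4 against diaphragm and 4 of 4 against soleus. Mesothelium markers summed to 65.1 to 189 TPM in the mock diaphragm and to at most 0.251 TPM in TA (4 of 4 lower in TA). Between TA and soleus no mesothelium, neutrophil or red blood cell marker was called. The part of these lists in the levels of Fst, Fstl3 and Inhbb was not tested.

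The receptor genes were nearly level across muscles. Acvr2a stood at 9.68, 8.29, 8.73, 9.17 and 8.69 TPM in TA, 9.29, 9.87, 9.67, 11.1 and 12.8 TPM in soleus and 6.35 to 8.32 TPM in the mock diaphragm, and only the difference between diaphragm and soleus passed the test (-0.47 ± 0.14, adjusted p = 0.0069). Acvr2b was between 4.00 and 6.08 TPM in all 19 libraries and passed none of the 3 tests. Smad3 was the most abundant of the 10 genes in these muscles, at 47.3, 45.4, 55.7, 55.4 and 46.9 TPM in TA, 45.8, 34.8, 37.9, 44.8 and 29.0 TPM in soleus and 22.3 to 41.6 TPM in the mock diaphragm. It was lower in every diaphragm library than in every TA library (-0.76 ± 0.15, adjusted p = 3.9e-05), and its differences from soleus were near the threshold (diaphragm -0.38 ± 0.15, adjusted p = 0.047; TA 0.39 ± 0.17, adjusted p = 0.046). Both of these were lost when single libraries were left out. Smad7 ranged from 3.26 to 8.01 TPM over the 3 muscles and passed no test.

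The muscles also differed in the median gene, as the median over all 13501 genes tested was 0.44 for diaphragm minus TA and -0.47 for TA minus soleus, and 88.3% and 8.10% of the called genes were higher in the muscle named first. After median-ratio scaling, which centres the libraries on the median gene, these shares were 48.7% and 52.9%. On that scale 8 of the 9 members differed between diaphragm and TA, where 9578 of 13501 genes did. All 9 differed between TA and soleus, where 7197 of 13501 genes did. Mstn (-0.93, adjusted p = 0.033), Acvr2a (-0.79) and Acvr2b (-0.61) were then lower in diaphragm than in TA. In the libraries with Pcna-ps2 at or below 1 TPM only, the diaphragm exceeded soleus in Mstn by 3.47 and TA in Fst by 1.64, close to the values above.

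**Figure D1:**
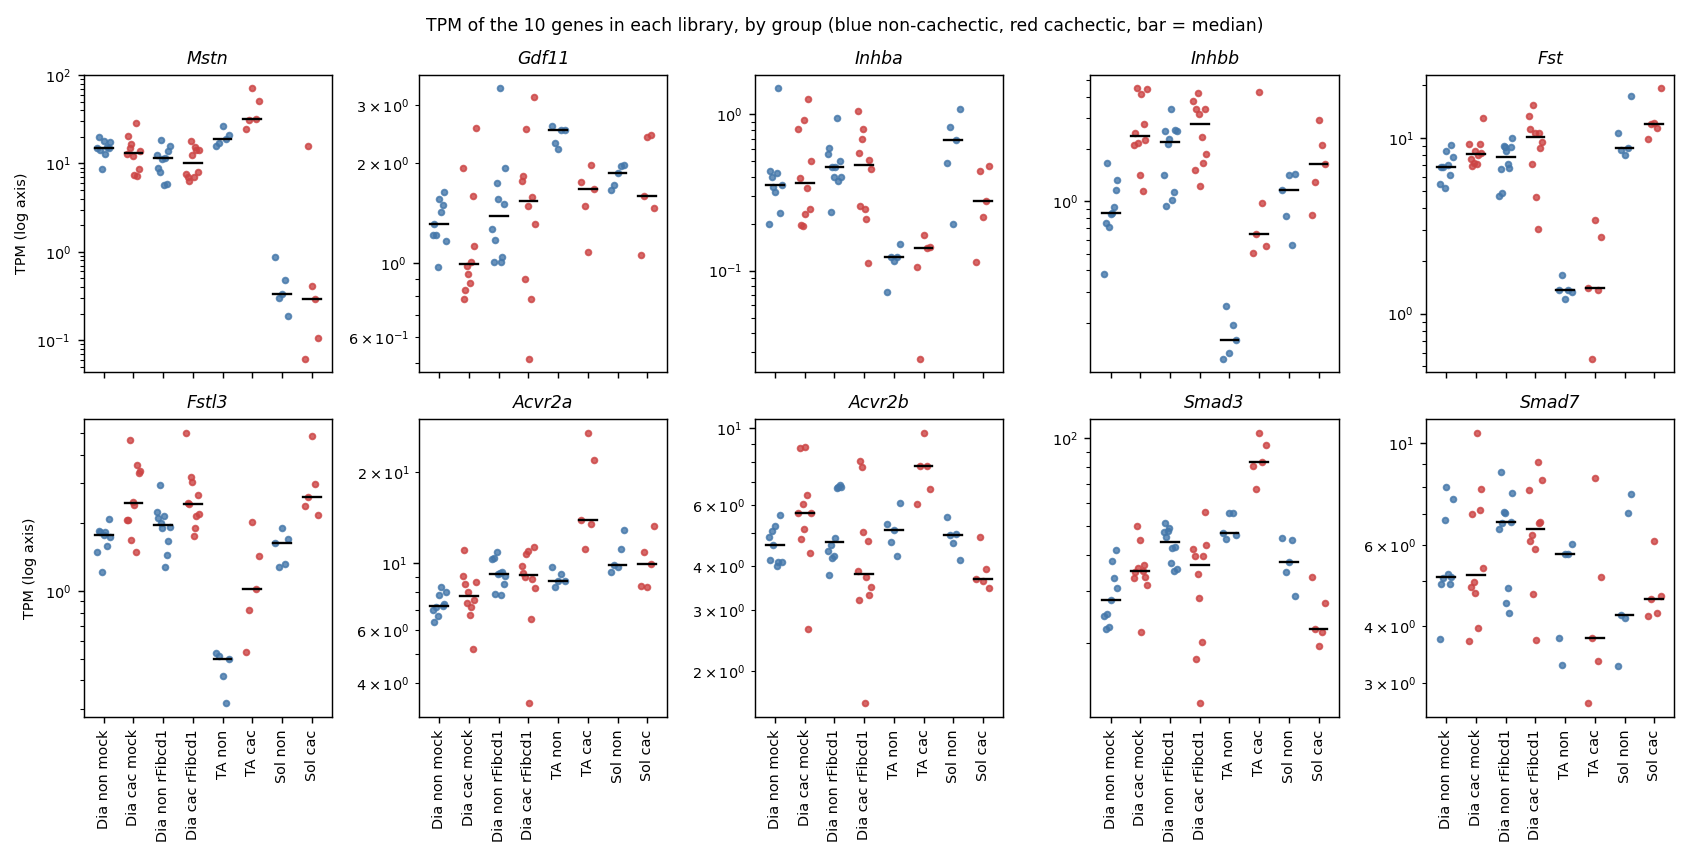
TPM of the 10 genes (log axis, a separate scale per gene) in each library of the 8 groups, with blue points for non-cachectic and red for cachectic libraries and a bar at the group median. Mstn is at most 0.873 TPM in soleus apart from 1 cachectic library at 15.8 TPM, and among the non-cachectic groups Fst, Fstl3 and Inhbb are lowest in TA.

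Across the 59 libraries, the genes whose log2(TPM + 1) pattern was most like that of Mstn were Mybpc2 (Pearson r = 0.93), which encodes fast myosin-binding protein C, Pvalb (0.86), the calcium buffer of fast fibres, Gm14261 (0.85), Nos1 (0.84) and Tnnt3 (0.84), fast troponin T. The most opposite were Pcbp4 (-0.88), Rspo3 (-0.87), Uchl1 (-0.86), Stau2 (-0.85) and Rp1_1 (-0.85), out of 14158 genes compared. The libraries share 3 muscles and 8 groups, so these coefficients mostly describe how muscles differ. Myh4 was less close a match in the diaphragm, where it ran from 13.8 to 1313 TPM while Mstn stayed between 5.72 and 28.4 TPM.

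**Figure D2:**
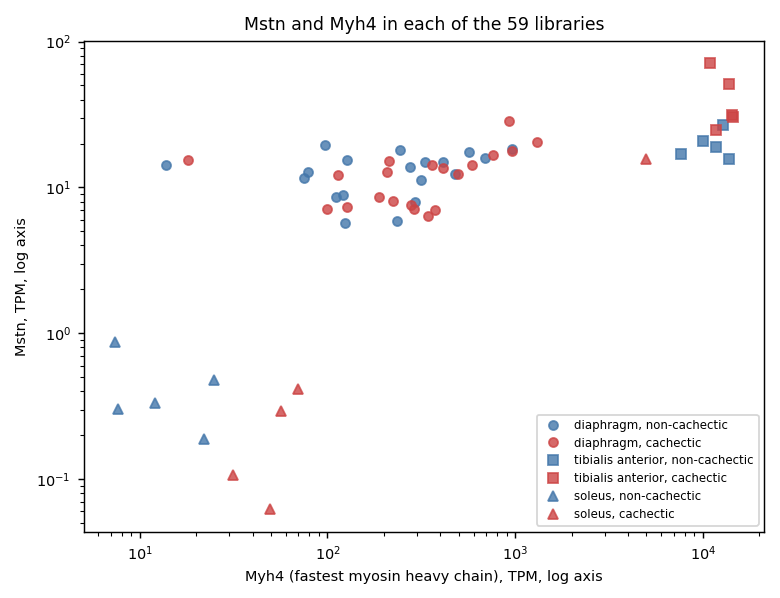
Mstn against Myh4 in each of the 59 libraries, both in TPM on log axes, with shapes for muscles and colours for tumour groups. Cachectic soleus library 7, at 4989 TPM Myh4 and 15.8 TPM Mstn, lies apart from the other 9 soleus libraries, which hold at most 0.873 TPM Mstn.

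In TA, the question was which of these genes differ between mice with the cachectic and the non-cachectic tumour. Mstn, both type II receptor genes and Smad3 rose, and Gdf11 fell. Of the 7 members that passed the filter (at least 1 TPM in 5 or more of the 10 libraries), 4 rose, where 56.4% of all genes tested did, and 1 fell, where 3.78% did. In all, 60.2% of genes passed the test in TA, so a rise on the TPM scale was the common outcome for any gene. The median difference was 0.49 over the 7 members and 0.41 over all 11105 genes.

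Mstn stood at 24.7, 30.6, 71.3, 31.5 and 50.8 TPM in cachectic TA libraries 6 to 10 (mean 41.8 ± 19.2 SD), against 15.7 to 26.7 TPM in the non-cachectic libraries. Libraries 8 and 10 were highest, library 6 alone fell within the non-cachectic range, and the difference was 0.95 ± 0.26 (adjusted p = 0.010). Gdf11 stood at 1.76, 1.49, 1.08, 1.98 and 1.67 TPM (mean 1.60 ± 0.337 SD), with every cachectic library below every non-cachectic one (-0.41 ± 0.11, adjusted p = 0.012). So the 2 closely related ligand genes moved in opposite directions on the TPM scale, though the rise of Mstn was not called after median-ratio scaling.

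Acvr2a stood at 13.8, 11.1, 26.9, 13.4 and 21.9 TPM in the cachectic TA libraries (mean 17.4 ± 6.69 SD) and at no more than 9.68 TPM in the non-cachectic ones, a difference of 0.82 ± 0.20 (adjusted p = 0.0076). Acvr2b stood at 6.05, 7.77, 9.69, 7.76 and 6.67 TPM (mean 7.59 ± 1.39 SD) against 4.28 to 6.08 TPM, where the lowest cachectic library just overlapped the highest non-cachectic one (0.49 ± 0.13, adjusted p = 0.011). Smad3 stood at 80.5, 67.3, 104.5, 82.7 and 94.96 TPM (mean 86.0 ± 14.3 SD) with every library above the non-cachectic range of 45.4 to 55.7 TPM (0.76 ± 0.13, adjusted p = 0.0014). Libraries 8 and 10 were the highest for Smad3 as for Mstn and Acvr2a, and library 8 had the lowest mitochondrial share of TA, 25.1%.

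Fst stood at 1.39, 0.555, 3.42, 1.37 and 2.72 TPM in cachectic TA, spread on both sides of the non-cachectic values (0.18, adjusted p = 0.50). Smad7 stood at 2.72, 3.77, 8.40, 3.35 and 5.10 TPM and did not pass the test either (-0.11, adjusted p = 0.69). Fstl3 and Inhbb were below the filter in TA, and all cachectic libraries lay above all non-cachectic ones for both. How many of all genes were separated in this way was not counted. These values are low and on the TPM scale, where 56.4% of all genes tested were higher in cachectic TA. Fstl3 was at 0.537, 0.818, 2.02, 1.01 and 1.43 TPM in the cachectic libraries, against at most 0.532 TPM. With no filter its difference was 0.53 ± 0.16 (adjusted p = 0.030). Inhbb was at 0.506, 0.648, 4.24, 0.984 and 0.555 TPM against at most 0.249 TPM, and with no filter its difference of 0.84 ± 0.30 had an adjusted p of 0.054.

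The 4 rises in TA were tested again with the shift of the median gene removed. Median-ratio scaling took the all-gene median from 0.41 to -0.01 and called 40.3% of genes, of which 45.6% were higher, against 93.7% before scaling. With mitochondrial transcripts removed instead, the median was 0.23, 81.7% of the called genes were higher, and all 4 rises passed (Mstn 0.73, Acvr2a 0.62, Smad3 0.52 and Acvr2b 0.30). After median-ratio scaling none of the 4 rises passed the test, with Mstn at 0.47 (adjusted p = 0.070), Acvr2a at 0.36 (adjusted p = 0.056), Smad3 at 0.26 (adjusted p = 0.088) and Acvr2b at 0.05 (adjusted p = 0.65). Gdf11 was lower on the TPM scale and after median-ratio scaling (-0.72), and Smad7 was then lower too (-0.53, adjusted p = 0.034). The fall of Gdf11 is the 1 change in TA that passed the test on both of these scales, though it had an adjusted p of 0.063 in 1 fit of all samples. Summed macrophage markers went from 9.19 to 21.2 TPM in the non-cachectic to 16.7 to 107 TPM in the cachectic TA libraries (4 of 4 tested genes higher), neutrophil markers from 0.953 to 3.65 to 6.47 to 49.0 TPM (2 of 2 higher), and fibroblast markers from 75.3 to 123 to 150 to 290 TPM (4 of 6 higher), with no marker at 0 in every library. Endothelial markers summed to 81.2 to 111 and 103 to 212 TPM (2 of 4 higher, 1 lower), smooth muscle and pericyte markers had 2 of 4 higher, and myofibre markers had 2 of 8 higher and 3 lower. Their part in these results was not tested.

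**Figure D3:**
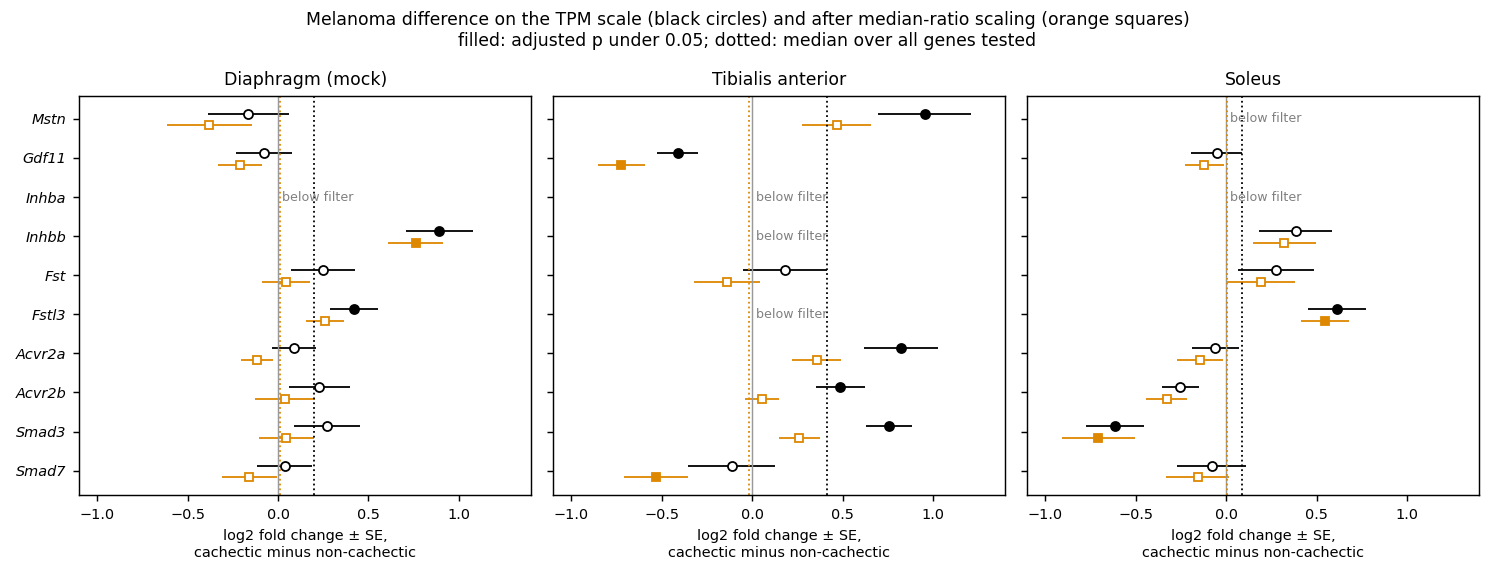
Difference between cachectic and non-cachectic libraries (log2 of TPM + 1, ± SE) for each gene in the mock diaphragm, TA and soleus, on the TPM scale (black) and after median-ratio scaling (orange), with filled symbols for an adjusted p under 0.05 and dotted lines at the median of all genes. In TA only Gdf11 is filled on both scales, in soleus Fstl3 and Smad3 are, and in the diaphragm Inhbb is.

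Soleus gave another picture, with Fstl3 higher and Smad3 lower in cachectic libraries. Of the 8 members that passed the filter, 1 rose (17.5% of all genes did) and 1 fell (7.54% did), a share of 2 in 8 that equals the background of 25.1% for either direction. The median difference was -0.06 over the 8 members and 0.09 over all 11957 genes. Fstl3 stood at 2.38, 2.62, 4.88, 2.99 and 2.17 TPM in cachectic soleus libraries 6 to 10 (mean 3.01 ± 1.09 SD), all above the non-cachectic range of 1.28 to 1.90 TPM (0.61 ± 0.16, adjusted p = 0.017). Smad3 stood at 33.5, 22.2, 19.6, 21.7 and 27.4 TPM (mean 24.9 ± 5.60 SD), and library 6 alone lay within the non-cachectic range of 29.0 to 45.8 TPM (-0.62 ± 0.16, adjusted p = 0.016). Both calls held after median-ratio scaling, where 28.0% of genes passed the test and 54.3% of those were higher against 70.0% before scaling (24.5% with mitochondrial transcripts removed), and both held without cachectic soleus library 7 (Fstl3 0.64, Smad3 -0.58).

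Acvr2b stood at 3.67, 4.87, 3.63, 3.93 and 3.47 TPM in cachectic soleus, against 4.18 to 5.54 TPM in non-cachectic soleus. Library 7 was the only cachectic library within the non-cachectic range, and the difference of -0.25 ± 0.10 missed the threshold (adjusted p = 0.088) but passed it without that library (-0.32, adjusted p = 0.036). Acvr2a (8.39, 10.9, 8.32, 9.89 and 13.3 TPM) and Gdf11 (1.06, 1.59, 2.40, 2.44 and 1.46 TPM) lay on both sides of their non-cachectic ranges, and neither passed the test. Inhbb (0.829, 1.29, 2.95, 2.12 and 1.65 TPM) and Fst (9.92, 12.05, 12.2, 11.4 and 19.3 TPM) overlapped their non-cachectic ranges with no library below them, and all 5 values of Smad7 (4.20, 4.58, 6.10, 4.27 and 4.64 TPM) lay inside its range. The differences of 0.38, 0.28 and -0.08 did not pass the test.

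Mstn did not pass the filter in soleus. It stood at 0.0621, 0.415, 0.295 and 0.106 TPM in cachectic libraries 6, 8, 9 and 10 and at 15.8 TPM in library 7, the library whose Myh4 was also high. The ratio of Fst to Mstn was 0.764 in that library and had a median of 38.6 in the group. Summed macrophage markers were 40.5 to 53.0 TPM in the non-cachectic and 31.4 to 149 TPM in the cachectic soleus (1 of 5 genes higher), and neutrophil markers 2.71 to 4.56 and 7.13 to 29.97 TPM (2 of 2 tested higher). Myofibre markers had 2 of 8 higher, endothelial and fibroblast markers 1 higher and 1 lower each, and smooth muscle and pericyte markers 1 lower. Their part in the soleus results was not tested.

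In the mock diaphragm, Inhbb and Fstl3 were higher in cachectic than in non-cachectic mice and the other members were not called. These were 2 of 9 members, against 30.9% of all genes that were higher, 2.67% that were lower and 33.5% in either direction. The median difference was 0.23 over the members and 0.20 over all 13426 genes. Inhbb ran from 0.382 over a median of 0.854 to 1.66 TPM in the non-cachectic group (mean 0.957 ± 0.376 SD, n = 9) and from 1.15 over 2.37 to 4.49 TPM in the cachectic group (mean 2.75 ± 1.22 SD, n = 10). The groups overlapped at their edges, and the difference was 0.89 ± 0.18 (adjusted p = 0.00052). Fstl3 ran from 1.22 over 1.78 to 2.08 TPM and from 1.49 over 2.45 to 4.65 TPM (0.42 ± 0.13, adjusted p = 0.014).

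Inhbb and Fstl3 behaved differently when the libraries were treated otherwise. With the Pcna-ps2 split as a term, 15.3% of genes differed between the tumour groups, Inhbb among them (0.59, adjusted p = 0.016) and Fstl3 not (0.29, adjusted p = 0.15). Among libraries with Pcna-ps2 above 1 TPM, 5.69% of genes differed, with Inhbb at 0.85 (adjusted p = 0.038) and Fstl3 at 0.39 (adjusted p = 0.17). In those libraries Inhbb was at 0.854 to 1.33 TPM in 3 non-cachectic and 1.41 to 4.49 TPM in 9 cachectic mock diaphragms. These ranges do not overlap, but 1 side holds only 3 libraries. How many of all genes were separated in this way was not counted. After median-ratio scaling, 15.8% of genes differed, 46.8% of them higher against 92.0% on the TPM scale, with Inhbb at 0.76 (adjusted p = 0.00078) and Fstl3 at 0.26 (adjusted p = 0.084). Macrophage markers summed to 70.1 to 164 TPM in the non-cachectic and 113 to 396 TPM in the cachectic mock diaphragms (2 of 5 genes higher). Neutrophil markers summed to 2.92 to 20.02 and 9.29 to 53.3 TPM (2 of 2 tested higher), and adipocyte markers to 115 to 1086 and 162 to 2315 TPM (medians 256 and 728, 1 of 4 higher). Smooth muscle and pericyte markers had 2 of 4 higher and 1 lower, endothelial markers 2 of 4 higher, myofibre markers 3 of 8 higher and fibroblast markers 1 of 6 higher. The part of these lists in these results was not tested.

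The ranges of the other members overlapped between the mock diaphragm groups. Fst was at 5.18 to 9.10 TPM (median 6.87) in non-cachectic and 6.96 to 12.96 TPM (median 8.10) in cachectic diaphragms, so the median non-cachectic library lay below every cachectic one. With the Pcna-ps2 split as a term of the diaphragm fit, Fst was higher in libraries above 1 TPM (0.56, adjusted p = 0.00028). Such libraries were 3 of 9 non-cachectic and 9 of 10 cachectic mock ones. Mstn was at 7.16 to 28.4 TPM in cachectic diaphragms (median 13.2) against 8.57 to 19.7 TPM (-0.16, adjusted p = 0.57), so the rise seen in TA was not detectable here. Smad3 was at 21.7 to 50.3 TPM (median 35.1) against 22.3 to 41.6 TPM (median 28.0), a difference of 0.27 with an adjusted p of 0.25. Fst, Acvr2a, Acvr2b, Smad7 and Gdf11 had differences of 0.25, 0.09, 0.23, 0.04 and -0.08 and adjusted p of 0.27 or more.

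**Figure D4:**
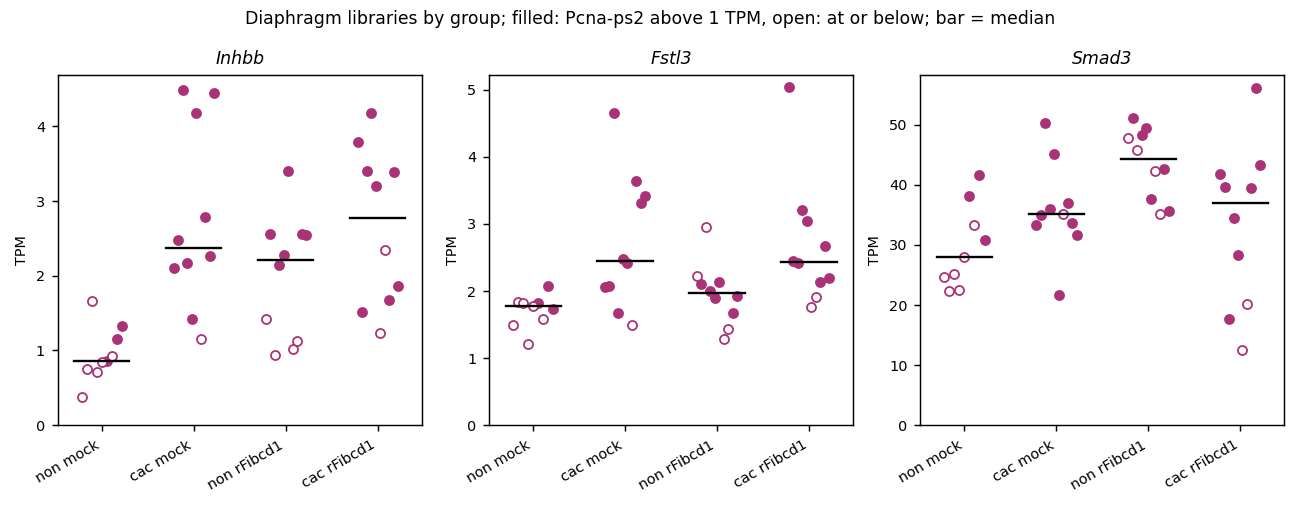
Inhbb, Fstl3 and Smad3 in TPM in each diaphragm library of the 4 groups, with filled points for libraries with Pcna-ps2 above 1 TPM, open points for the others and a bar at the group median. Among filled points Inhbb is at 0.854 to 1.33 TPM in the non-cachectic mock group and at 1.41 to 4.49 TPM in the cachectic mock group.

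Whether the tumour difference itself varied with the muscle was tested on the 6 groups without rFibcd1. These 3 tests share libraries, as each muscle enters 2 of them. The tumour difference in Smad3 was larger in TA than in soleus by 1.37 ± 0.24 (adjusted p = 0.00033) and larger in diaphragm than in soleus by 0.89 ± 0.21 (adjusted p = 0.018). The difference in Acvr2a was larger in TA than in soleus by 0.88 ± 0.22 (adjusted p = 0.0067) and smaller in diaphragm than in TA (-0.74 ± 0.19, adjusted p = 0.023). For Acvr2b it was larger in TA than in soleus by 0.74 ± 0.23 (adjusted p = 0.021). In all, 3 of 9 members passed between TA and soleus (20.4% of all genes did), 1 of 9 between diaphragm and TA (5.04%) and 1 of 9 between diaphragm and soleus (2.52%).

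Of these 5 differences, the one in Smad3 between TA and soleus also passed after median-ratio scaling (0.96, adjusted p = 0.012). On that scale Smad3 between diaphragm and soleus was at 0.74 (adjusted p = 0.055), Acvr2a at 0.50 (adjusted p = 0.078) and -0.48 (adjusted p = 0.076), and Acvr2b at 0.37 (adjusted p = 0.32), while Gdf11 passed between diaphragm and TA (0.58, adjusted p = 0.037) and between TA and soleus (-0.67, adjusted p = 0.020). Acvr2a between diaphragm and TA was at -0.57 (adjusted p = 0.078) without cachectic TA library 8 and at -0.64 (adjusted p = 0.051) without library 10. Acvr2b between TA and soleus was at 0.66 (adjusted p = 0.053) without cachectic TA library 8, and between diaphragm and soleus it passed (0.58, adjusted p = 0.046) without cachectic mock diaphragm library 32. The tumour difference in Mstn was larger in TA than in soleus by 0.42 ± 0.62 (adjusted p = 0.64) with all libraries and by 1.18 (adjusted p = 0.036) without cachectic soleus library 7. That library also decided Mstn between diaphragm and TA, at -1.12 with an adjusted p of 0.20 with it and 0.042 without it. Between diaphragm and soleus Mstn was at -0.70 (adjusted p = 0.58) with it and 0.06 (adjusted p = 0.96) without it.

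The last comparisons asked what rFibcd1 did in the diaphragm. No member was called in any of them. Between rFibcd1 and mock, 0.0447% of all genes passed the test in cachectic mice (6 of 13426) and 0.417% in non-cachectic mice (56 of 13426), and the interaction of tumour and rFibcd1 passed for 0.0223% (3 of 13426). At an unadjusted p under 0.05 the members numbered 1, 4 and 3 of 9 in these comparisons, where 1412, 2332 and 1180 of all genes did. In cachectic mice the 9 differences lay between -0.35 (Acvr2b) and 0.17 (Gdf11).

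In non-cachectic mice Smad3 ran from 35.2 over 44.3 to 51.1 TPM with rFibcd1 (mean 43.6 ± 5.87 SD, n = 10) and from 22.3 over 28.0 to 41.6 TPM with mock (mean 29.6 ± 6.90 SD, n = 9), a difference of 0.56 with an adjusted p of 0.20. Inhbb ran from 0.940 over 2.21 to 3.41 TPM with rFibcd1 and from 0.382 over 0.854 to 1.66 TPM with mock (0.59, adjusted p = 0.18). The ranges overlapped for both genes. A fit of these 2 groups alone called Smad3 (adjusted p = 0.0056), Acvr2a (0.30, adjusted p = 0.0063) and Inhbb (adjusted p = 0.021), with 19.6% of all genes called. Inhbb differed within the rFibcd1 group by the Pcna-ps2 split, at 2.14 to 3.41 TPM in the 6 libraries above 1 TPM and 0.940 to 1.42 TPM in the 4 others, whereas Smad3 was at 35.7 to 51.1 and 35.2 to 47.9 TPM. Adipocyte markers summed to 136 to 3962 TPM with rFibcd1 (median 649.9) against 115 to 1086 TPM (median 256), with 0 of 4 called, and their part in these values was not tested. Mstn differed by -0.46 in this comparison, which did not pass (adjusted p = 0.29).

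Among mice given rFibcd1, no member differed between cachectic and non-cachectic diaphragms, where 9.11% of all genes did. Smad3 came nearest, with 12.4 over 37.0 to 56.2 TPM in the cachectic group against 35.2 to 51.1 TPM (-0.49 ± 0.18, adjusted p = 0.076). The cachectic group spread to both sides of the other. It passed the test after median-ratio scaling (-0.56, adjusted p = 0.017) and with the Pcna-ps2 split as a term (-0.57, adjusted p = 0.022). It also passed without cachectic rFibcd1 library 17 (-0.58, adjusted p = 0.029) or 18 (-0.54, adjusted p = 0.043). The interaction for Smad3 was -0.76 (adjusted p = 0.51) and for Inhbb -0.61 (adjusted p = 0.55), so a different tumour effect under rFibcd1 was not shown for either.

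The rest of the pathway was followed through 6 lists with 45 genes, of which 44 were in the table. In TA, 20 of the 34 tested were higher in cachectic libraries and 2 were lower on the TPM scale, near the 56.4% and 3.78% of all genes, and 8 were higher and 8 lower after median-ratio scaling, where 40.3% of all genes were called. In the mock diaphragm 12 of 38 were higher and 0 lower on the TPM scale, near the 30.9% and 2.67% of all genes, and 4 and 1 after scaling (15.8% of all genes called). In soleus the counts were 4 higher and 4 lower of 35 (17.5% and 7.54% of all genes), and 3 and 10 after scaling (28.0% of all genes called). The balance of rises and falls over the pathway thus depended on the scale, and the genes below are given on both.

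The other receptor genes were called higher for 4 of 5 in both TA and diaphragm (medians 0.85 and 0.49, over all genes 0.41 and 0.20), where 56.4% and 30.9% of all genes were. After scaling 3 of 5 were higher in each, where 2043 of 11105 genes were in TA and 992 of 13426 in the diaphragm. Acvr1, another type I receptor gene, was then lower in TA (-0.76, adjusted p = 0.0054). Tgfbr2, the type II receptor gene of TGF-beta itself, was higher by 1.12 in TA and 0.86 in the diaphragm (0.64 in each after scaling), Tgfbr3, a co-receptor gene, by 1.19 and 0.66 (0.74 and 0.44), and Tgfbr1, a type I receptor gene, by 0.85 and 0.49 (0.38 and 0.28). Acvr1b, which encodes a type I receptor of activins and myostatin, was higher by 0.51 and 0.44 but was not called on the other scale (0.01 and 0.22). In soleus none of the 5 was called on the TPM scale, and after scaling Tgfbr2 was lower there (-0.43, adjusted p = 0.023).

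Among genes known to respond to the pathway, 4 of 6 were called higher in TA, 3 of 7 in the diaphragm and 3 of 6 in soleus, with medians of 0.82, 0.38 and 0.16. Of all genes 56.4%, 30.9% and 17.5% were higher. After scaling 2 of 6 were higher in TA, 1 of 7 in the diaphragm and 2 of 6 in soleus, where 1 was lower. Of all genes, 2043 of 11105 were then higher in TA and 992 of 13426 in the diaphragm. In soleus 1820 of 11957 genes were higher and 1530 lower. Cdkn1a, a cell cycle inhibitor gene that many other stress signals also induce, was higher by 1.83 in TA, 1.26 in the diaphragm and 1.55 in soleus, and passed in all of them after scaling (1.35, 1.04 and 1.46). Tgif1, which encodes a Smad corepressor, was higher by 1.45, 0.56 and 0.52, and after scaling it passed in TA (1.09) and soleus (0.45) and not in the diaphragm (0.39, adjusted p = 0.14).

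Of the genes of other extracellular binding proteins, 4 of 6 tested were higher in TA, where 56.4% of all genes were, 3 of 8 were higher in the diaphragm, where 30.9% were, and 3 of 7 were lower in soleus, where 7.54% were. After scaling 2 were higher and 1 lower in TA, 0 and 1 in the diaphragm, and 0 and 5 in soleus. Of all genes, 2043 were then higher and 2433 lower of 11105 in TA. The counts were 992 and 1129 of 13426 in the diaphragm and 1820 and 1530 of 11957 in soleus. Between TA and soleus the tumour difference passed for 3 of 8 on both scales. Of all genes 20.4% passed on the TPM scale, and 1551 of 13501 after scaling. Dcn (decorin) was higher by 1.00 in TA and lower in soleus (-0.72), and both calls held after scaling (0.50 and -0.82). Wfikkn2, which encodes a myostatin-binding protein, was higher by 0.57 in TA and lower in soleus (-0.54), of which only the fall in soleus passed after scaling (-0.62). The difference between the muscles passed on both scales for Dcn (1.72, and 1.31 scaled) and Wfikkn2 (1.11, and 0.73 scaled). Sparc, which encodes a matrix protein, was lower in soleus (-0.93, and -1.02 scaled) and, after scaling, lower in TA too (-0.61, adjusted p = 0.031). Inha, the inhibin alpha subunit gene, had the reverse pattern, lower in TA (-0.91, and -1.35 scaled) and higher in soleus (0.58, and 0.49 scaled), with a difference between the muscles of -1.49 (-1.88 scaled).

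Of the enzyme genes that mature the ligands, Furin (0.76) and Bmp1 (0.48) were higher in TA and neither passed after scaling. Tll1 was at 0.295 to 0.420 TPM in non-cachectic and 1.13 to 2.03 TPM in cachectic TA, so it passed the filter only through the group where it is high, and its calls in the counts over the pathway in TA are no support for a rise. Of the 10 intracellular mediators, 5 were higher and 1 lower in TA on the TPM scale, and 0 and 5 after scaling. The share of all genes was 56.4% higher and 3.78% lower on the TPM scale, and 40.3% were called after scaling. Smad6, which like Smad7 encodes an inhibitory Smad, was lower on both scales in TA (-0.47, and -0.85 scaled) and in soleus (-0.46, and -0.53 scaled). With rFibcd1, Tgfbr2 alone of the 38 tested differed between cachectic and non-cachectic diaphragms on the TPM scale (0.42, adjusted p = 0.049), where 9.11% of all genes did, and none passed between rFibcd1 and mock. After scaling Tgfbr2 was higher (0.35, adjusted p = 0.027) and Smurf1, which encodes a ubiquitin ligase, was lower (-0.21, adjusted p = 0.021).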

How the data were processed

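RNA was sequenced from 59 muscle samples. The authors mapped reads to the mouse genome (mm10 per the labels) with CLC Genomics Workbench and deposited TPM per gene, without read counts. The gene annotation is not given in the sources used here, and labels and methods name different kits. Columns were matched to groups by name, and no label links a column's number to a replicate. Here, log2(TPM + 1) was fitted with limma 3.58.1 (R 4.3.3) with a moderated variance that follows the mean level and with Benjamini-Hochberg adjustment over all genes tested, called at an adjusted p under 0.05. Genes needed at least 1 TPM in as many libraries as the smallest group of the fit. The 4 diaphragm groups shared 1 fit, TA and soleus had 1 each, and differences between muscles came from 1 fit of the 6 groups without rFibcd1. The fits were tested on simulated data with independent noise. These held no Pcna-ps2 split and no shift of the mitochondrial share, so that test does not cover either. No minimum of recovered changes was set for the soleus fit. The log2(TPM + 1) scale understates changes of low genes. All 10 genes are named. For the other lists, up to 4 examples with the largest change among called genes are named, and the genes most like Mstn are those with the 5 highest and lowest coefficients among genes with at least 1 TPM in 5 libraries. The genes and lists were chosen with earlier results of these data known. Alternatives covered the pseudocount, the filter, scaling, mitochondrial transcripts, Dunn's test, the samples in the fit, the Pcna-ps2 split, a clock-gene index and leaving out each library. A block on the column number and the libraries with low Pcna-ps2 were added after seeing the data. Promoters came from RefSeq and positions from GENCODE M21. A result of the pathway lists is not reported here.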

Additional observations from a re-analysis of the deposited data

Results flagged for a closer look

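In 10 of 80 sets of a gene and a group, the highest library stood apart by Dixon's criterion, which chance meets in about 1 in 20 sets. Mstn was at 15.8 TPM in cachectic soleus library 7, with the next library at 0.415 TPM, and Myh4 was high in the same library. Inhbb was at 4.24 TPM in cachectic TA library 8 (next 0.984), the TA library with the lowest mitochondrial share. Fst was at 17.5 TPM in non-cachectic soleus library 65 (next 10.6), at 19.3 TPM in cachectic soleus library 10 (next 12.2) and at 12.96 TPM in cachectic mock diaphragm library 35 (next 9.24). Smad7 was at 6.10 TPM in cachectic soleus library 8 (next 4.64), and Fstl3 at 5.04 TPM in cachectic rFibcd1 diaphragm library 1 (next 3.21). Gdf11 was at 3.37 TPM in non-cachectic rFibcd1 diaphragm library 56 (next 1.93). Inhba was at 1.48 TPM in non-cachectic mock diaphragm library 67 (next 0.434) and at 0.952 TPM in non-cachectic rFibcd1 diaphragm library 57 (next 0.610).

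On the TPM scale the tumour difference differed between TA and soleus for Smad3 (1.37), Acvr2a (0.88) and Acvr2b (0.74), between diaphragm and soleus for Smad3 (0.89), and between diaphragm and TA for Acvr2a (-0.74), where 20.4%, 2.52% and 5.04% of all genes did. After median-ratio scaling Smad3 between TA and soleus alone of these 5 passed, and the calls of Acvr2b between TA and soleus and of Acvr2a between diaphragm and TA were also lost with single libraries left out.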

How the results depend on the processing

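Of 217 alternative values, computed with all libraries, for log2 differences past the threshold, 188 kept direction and side of the threshold, 29 missed the threshold and 0 reversed. The number of genes called among the 10 changed by more than 1.5 times as follows, and where no value above shows a cause, the cause was not tested. In the mock diaphragm 2 became 0 with a mean of at least 5 TPM, where Inhbb and Fstl3 are no longer tested, and 1 with median-ratio scaling, without mitochondrial transcripts, with the Pcna-ps2 term and in the libraries above 1 TPM only. Under rFibcd1, 0 became 1 with median-ratio scaling, without mitochondrial transcripts and with the Pcna-ps2 term, and was 0 to 1 with 1 library left out. Between rFibcd1 and mock in non-cachectic mice, 0 became 3 in the 2 groups alone. In TA 5 became 2 with median-ratio scaling. In soleus 2 became 1 with a mean of at least 5 TPM, by Dunn's test and in 1 fit of all samples. For the tumour difference between muscles, 1 became 0 to 2 (diaphragm against TA) and 1 to 2 (diaphragm against soleus) with 1 library left out, and 0 with median-ratio scaling for diaphragm against soleus. Between non-cachectic muscles, diaphragm against TA went from 5 to 2 (mean of at least 5 TPM), 8 (median-ratio) and 3 (Dunn), diaphragm against soleus from 4 to 2 (without mitochondrial transcripts) and 1 (Dunn), and TA against soleus from 5 to 3, 9 and 2. Smaller shifts were 4 or 6 in TA, 3 in soleus, 2 to 4 for the tumour difference of TA against soleus and, between muscles with all libraries, 6 or 7, 3 or 5 and 6 or 7. In the libraries with low Pcna-ps2, chosen after seeing the data, Smad3 kept its direction in all 3 muscle comparisons.

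Reversals concerned differences that were not called. In the mock diaphragm these were Fst (-0.068, Pcna-ps2 term), Acvr2a (-0.12 with median-ratio scaling, -0.13 without mitochondrial transcripts, -0.082 with the Pcna-ps2 term), Smad7 (-0.16, -0.18 and -0.084 likewise) and Smad3 (-0.056 in the libraries above 1 TPM). With median-ratio scaling Fst in TA was -0.14, and Mstn between the tumour effects of TA and soleus was -0.035. With 1 library left out, Smad7 lay between -0.048 and 0.096 in the diaphragm, -0.31 and 0.020 in TA and -0.21 and 0.053 in soleus, where Gdf11 lay between -0.13 and 0.050 and Acvr2a between -0.15 and 0.0068.

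A replicate block on the labels' numbers could not be fitted, since the columns do not carry them. With a block on the column number (correlation 0.38), added after seeing the data, libraries of equal number correlated by 0.010 to 0.50, over 0.1 in 28 of 30 pairs. Pairing was to be assumed only above 0.1 in every pair, and the labels do not tie the numbers to mice, so whether equal numbers mark 1 mouse is not known. That block moved the called members from 5 to 6 between diaphragm and TA (Acvr2a -0.28, adjusted p = 0.047) and from 4 to 5 between diaphragm and soleus (Gdf11 -0.31, adjusted p = 0.030), left 5 for TA and soleus, and left 1, 1 and 3 for the tumour differences. It moved the called genes from 340 to 994 for the tumour difference of diaphragm against soleus and from 2750 to 5569 for that of TA against soleus.

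Over the alternatives, the number of all genes called ran from 805 to 6298 in the mock diaphragm (4501 above), 4476 to 7342 in TA (6680), 2236 to 3875 in soleus (2999) and 0 to 1353 between tumours under rFibcd1 (1223). It ran from 0 to 789 between rFibcd1 and mock in cachectic mice (6), 0 to 2453 in non-cachectic mice (56) and 0 to 3 for the interaction (3). For the tumour differences it ran from 439 to 2438 (681), 168 to 994 (340) and 1551 to 5569 (2750), and between muscles from 6013 to 11362 (9790), 1178 to 7155 (5243) and 4990 to 10331 (9385). Depth is unknown, so Inhba, and Mstn in soleus, cannot be given a detection limit.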

Other observations

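A clock-gene index of the libraries, entered as a term in the diaphragm fit, was called for 29 of 13426 genes (0.216%), none of them among the 10. Satellite cell markers summed to 0.770 to 1.17 TPM in non-cachectic and 1.95 to 4.4 TPM in cachectic TA, where neither gene passed the filter, and to 3.95 to 6.64 and 3.14 to 5.66 TPM in soleus, where neither of the 2 genes tested was called. The ratio of Fst to Mstn had a median of 0.0480 in cachectic TA (0.0181 to 0.0565) and 0.708 in the cachectic mock diaphragm (0.281 to 1.29), beside 0.0719 and 0.469 in the non-cachectic groups.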
